A study of Saccharomyces cerevisiae with 112 samples.

Results

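The small ribosomal subunit of budding yeast holds 1 ribosomal RNA and a set of proteins encoded by 57 genes, RPS0A to RPS31 and ASC1, which were taken from the deposited table by their systematic names. The table lists 6319 genes, and 42 of the 57 had a usable value. Of the 57 genes, 48 form 24 paralogue pairs left by the ancient genome duplication, and 9 have no paralogue. Messenger RNA was measured by RNA-seq in 8 strains at 7 stages, with 2 libraries for each of the 56 combinations. The stages were midlog growth, starvation after 72 h of culture at 30 °C, 5, 30 and 90 min after release into fresh medium, and 1 and 2 population doublings after release. A series is the 7 libraries of 1 strain with 1 replicate number.

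Both wild types derive from S288C and are MATa. Strain wt1 (NKI12318) carries his3d200, leu2d0 and lys2d0 together with met15d0, trp1d63, ura3d0, a bar1::HisG HIS3 locus and a Cre recombinase fused to an estradiol-binding domain (Pgpd_CRE_EBD78). Strain wt2 (JOY1, with BY4741 as a parent) lacks URA3, LEU2, HIS3 and MET15 and has bar1D:HIS5. The MATa strains Sir2D and Sir4D came from a deletion library and lack SIR2 or SIR4 (KanR) beside URA3, LEU2, HIS3 and MET15. Sir3D (MRL5.1, S288C, MATa) lacks SIR3 and the same 4 markers. In Sir3_3xHA a switchable loxP cassette tags the Sir3 C-terminus of wt1, and Sir3_3xT7 is that strain after the estradiol-induced switch, so they are not independent strains; the labels call both hypomorphs. oeSir3 (THC70) is a W303 strain labelled MATa in which Sir3HA is driven by a GAL promoter (GAL10 in the genotype, GAL1 in the strain description) at ura3-1, with the native SIR3, MAT, HML, BAR1 and LYS2 genes deleted, an rHMRa cassette at hmr, and marker alleles of ADE2 (ade2-1), HIS3, LEU2, TRP1 (trp1-1) and CAN1. It was grown and released in galactose medium and the other 7 strains in glucose medium. Background, sugar and SIR3 dose therefore cannot be told apart in oeSir3.

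Ribosomal protein genes are among the most highly transcribed genes of growing yeast, and their transcription falls when nutrients or TOR signalling fail. Rap1 binds most of their promoters and, together with Fhl1 and its coactivator Ifh1, keeps them active. Many carry introns, which are rare in this genome, and the paralogues of a pair usually encode nearly the same protein.

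The deposited values are log2 median coverage over the coding sequence against a fission yeast spike-in, which was added per mass of total RNA. A value therefore describes messenger RNA relative to total RNA, and fewer cells of a kind and less messenger RNA per cell cannot be told apart. The median gene was covered by 4 to 119.5 reads per library (median 52.5), and replicates correlated across genes at 0.81 to 0.99. SIR2, SIR3 and SIR4 were at 0 coverage in all 14 libraries of their own deletion strain, and the median log2 level of SIR3 was 3.36 in oeSir3 against -2.17 in wt1 and -2.63 in wt2. Replicate 1 of wt2 stood apart: its median gene was low and the small subunit genes were high at midlog and 90 min, so values without it are given where it matters. In 6 series (replicate 1 of wt1, wt2, Sir2D, Sir3D, Sir3_3xT7 and Sir3_3xHA) each library had its own value for 0 coverage, and in each of the other 10 the libraries shared 1 value, which differed between most series. Wild-type comparisons were repeated within each of these sets. The labels do not say that replicates were separate cultures, so each p-value covers only sample-to-sample spread, part of which may be technical.

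The 15 genes without a usable value were RPS4A, RPS4B, RPS6A, RPS6B, RPS7B, RPS16B, RPS17B, RPS18B, RPS19A, RPS19B, RPS21B, RPS24B, RPS27B, RPS30A and RPS30B. All 15 lie on the reverse strand and have a split coding sequence in the R64 annotation. Of them 14 were at 0 in every library, and RPS16B was at 0 in 105 and at 1 to 14 reads in the rest, where its paralogue RPS16A had at least 2063.5. All 20 members with a split coding sequence on the forward strand and all 20 with a single coding block were measured, while of the 17 reverse split members only RPS14A and ASC1 were. Across the genome 88 of 132 reverse split genes (66.7%) were at 0 in every library and none of 134 forward split genes. The zeros follow strand and gene structure and are not read as absence of messenger RNA. RPS14A, the paralogue of a gene for a protein of the subunit platform, was itself at 0 in 4 libraries and far below RPS14B, and its values are uncertain for the same reason. ASC1 has the same structure and strand. It was at 0 in none of the libraries, but whether its values are affected was not tested. Both genes could be compared in 13 of the 24 pairs.

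In growing wild-type cells (midlog and both doublings, each library set against its own median gene) RPS31, which encodes a fusion of ubiquitin with a ribosomal protein, had the highest coverage per base at a log2 level of 8.58 ± 0.69 (SD, n = 4 series). RPS20, RPS26A and RPS10A followed at 7.85 ± 0.65, 7.84 ± 1.28 and 7.71 ± 0.81. Among the lowest were RPS26B at 2.33 ± 0.71, RPS29A at 2.15 ± 0.46 and RPS14A at -1.38 ± 0.75. Of the 41 neighbouring steps in this order, 38 were smaller than the larger SD of the 2 genes, so ranks within the middle of the list do not differ beyond their spread.

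**Figure D1:**
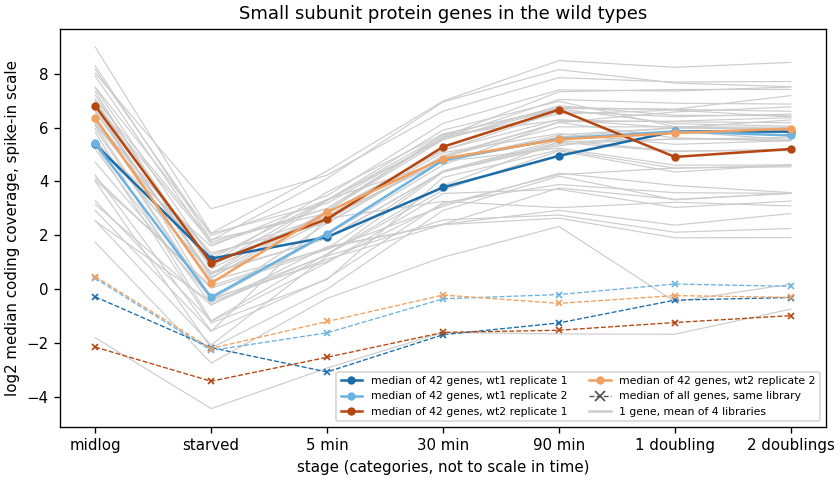
The log2 coverage on the spike-in scale (vertical axis) is plotted for the 7 stages in wild-type cells; grey lines are the 42 genes (mean of 4 libraries), coloured solid lines the median of the 42 genes in each series, and dashed lines the median of all genes in the same libraries. In every series the small subunit genes drop at starvation and return to near their midlog level by 90 min, while the median gene moves less.

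The 42 genes together made up 15.1% ± 6.20 (SD, n = 4) of the summed coverage of all genes in wild-type cells at midlog, with libraries from 10.3% to 24.2%. The highest was replicate 1 of wt2. In starved cells it was 2.13% ± 1.03 (1.41% to 3.60%). It was 5.01% ± 1.29 at 5 min, 10.6% ± 2.93 at 30 min and 17.1% ± 4.23 at 90 min. After 1 and 2 doublings it was 13.3% ± 0.735 and 13.5% ± 2.07. Without replicate 1 of wt2 the mean share was 12.02% ± 1.46 at midlog, 9.19% ± 0.55 at 30 min and 15.07% ± 1.55 at 90 min. It was then 13.20% ± 0.89 and 14.13% ± 2.08 after 1 and 2 doublings. The midlog mean thus lay above both doublings with that series and below both without it. The lowest midlog library lay well above the highest starved one, and the share rose from starvation to 5 min (3.60% to 6.25%) in each of the 4 series, the lowest 5 min library lying just above the highest starved one.

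Whether the genes of the subunit fell together during starvation was tested in the wild types with limma, with Benjamini-Hochberg adjustment over all 5567 genes that passed a filter on low values. Calls needed an adjusted p under 0.05 together with a log2 change of 1 or more in either direction. All 42 measured genes fell, beside 71.9% of all genes called lower and 4.38% higher. The median log2 change of the 42 was -5.60 against -1.96 for all genes, and the range ran from -7.23 to -2.63. With each library centred on its median gene, 40 of the 42 were called lower beside 21.5% of all genes called lower and 22.6% higher, with medians of -3.58 and 0.06. RPS14A and RPS29A were not called on that scale, and no member was called higher on either.

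RPS22A (YJL190C), which encodes a protein of the subunit body, fell the most on the spike-in scale. Its midlog levels were 6.77 and 5.57 in wt1 and 8.73 and 6.34 in wt2, and its starved levels were 1.28, -1.51, 0.53 and -1.81 in the same order. No starved library came near a midlog one, and the change was -7.23 ± 0.63 (SE, limma, adjusted p = 1.46e-15). ASC1 (YMR116C), the yeast homologue of the signalling scaffold RACK1, stood at 4.84, 5.36, 6.73 and 6.41 at midlog and at -1.60, -1.91, -0.22 and -0.99 in starved cells, again without overlap. ASC1 fell by 7.01 on the log2 scale (SE 0.70, limma adjusted p = 1.91e-13), and RPS1B by 6.95 (SE 0.63, 6.77e-15). The smallest falls were those of RPS14A (-2.63 ± 1.13, limma adjusted p = 0.0318), RPS29B (-3.75 ± 0.53, 8.61e-09) and RPS29A, which lay between them (SE 0.73, adjusted p = 2.74e-04). RPS14A was the lowest member in starved cells, at -2.41 ± 0.63 (SD) against the median gene. The 0.03 added to each value limits the fall of so low a gene, so the place of RPS14A is uncertain. RPS29A stood at 1.68, 2.60, 2.67 and 3.15 at midlog and at 0.13, 0.11, -1.35 and -0.81 in starved cells, without overlap. The RPS29 genes encode a small zinc-binding protein of the subunit head. The 22 measured members with a split coding sequence had a median change of -5.86 and the 20 with a single block -5.10.

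The 9 genes without a paralogue all fell, by a median of 6.10 and a range from 7.01 to 5.14 on the log2 scale. RPS31 stood at 7.84, 8.19, 10.96 and 8.97 at midlog and at 1.95, 1.21, 3.76 and 1.38 in starved cells (log2 change -6.92 ± 0.65). RPS3, whose protein lines the entry channel of the messenger RNA, went from 6.74, 6.17, 7.50 and 7.37 to 1.30, -0.17, 1.71 and 0.96 (-5.99 ± 0.62). For both genes the highest starved library lay far below the lowest midlog one. RPS15, needed for export of the subunit precursor from the nucleus, changed least of the 9 at -5.14 ± 0.48. RPS20, RPS12, RPS2 and RPS13, which encode head and body proteins, changed by -6.48, -6.37, -6.10 and -6.02.

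**Figure D2:**
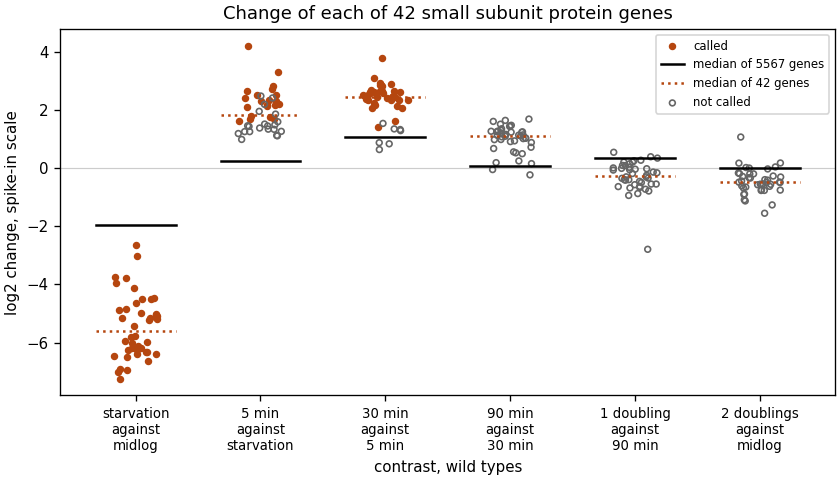
Each point is the log2 change of 1 of the 42 genes on the spike-in scale (vertical axis) in 1 of 6 contrasts of wild-type stages (horizontal axis); filled points passed the test, black bars are the median of 5567 genes and dotted bars the median of the 42. All 42 points are filled for starvation, 21 for the first 5 min, 35 for the step to 30 min, and none afterwards.

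Within 5 min of release 21 of the 42 genes rose and none fell by limma, beside 10.3% of all genes called higher and 1.2% lower. On the centred scale 19 rose, beside 11.6% of all genes called higher and 7.98% lower. Within the 4 series 42, 42, 41 and 42 of the genes were above their starved level. All 42 had a positive estimate, with a median log2 change of 1.81 against 0.22 for all genes. RPS9A led with 4.20 ± 0.60 (SE, limma adjusted p = 2.46e-07), and RPS26B (3.30 ± 0.61, 3.68e-05) and RPS9B (2.82 ± 0.65, 1.24e-03) followed. RPS26 sits at the exit of the messenger RNA channel and RPS9 near its entry. Among the called genes the smallest change was 1.61 ± 0.53 for RPS22B. Of the 9 genes without a paralogue 6 rose, led by RPS13 (2.72 ± 0.53, limma adjusted p = 1.09e-04), while estimates such as those of RPS12 (2.47) and RPS15 (1.25) did not pass. The count depended on the libraries: it was 3 without replicate 2 of wt1 and 6 without replicate 2 of wt2, and 1 within the set of series with separate zero values against 42 within the set whose libraries share a value.

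RPS26B shows the size of the early step. Its starved levels were -2.02 and -0.95 in wt1 and -2.84 and -2.50 in wt2, and its 5 min levels 0.87, 1.58, 0.64 and 1.81. Every 5 min library exceeded every starved one, and at 5 min RPS26B stood 1.32 below its midlog mean of 2.54.

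Between 5 and 30 min 35 of the 42 genes rose and none fell by limma, beside 39.1% of all genes called higher and 3.77% lower, with medians of 2.44 and 1.08. On the centred scale 20 rose, beside 12.5% of all genes called higher and 14.8% lower, and the median of the 42 was 1.36. All 9 genes without a paralogue rose, by 2.16 to 2.85. The largest change was that of RPS22B, whose 5 min levels were 0.03, 0.40, -0.59 and 1.58 and whose 30 min levels were 3.50, 5.20, 3.11 and 4.77. Its groups did not overlap, and the change was 3.79 ± 0.53 (SE, limma adjusted p = 1.03e-07). RPS21A (2.93 ± 0.83, 3.84e-03) was also among the largest. The smallest called changes were those of RPS27A (1.41 ± 0.59, limma adjusted p = 0.0444), RPS25A (1.60 ± 0.60, 0.0254) and RPS0B (2.06 ± 0.48, 5.79e-04). RPS9A, first at 5 min, had an estimate of 0.63 ± 0.60 (limma adjusted p = 0.385). The count was 23 without replicate 2 of wt1, 6 within the set of series with separate zero values and 39 within the other.

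From 30 to 90 min no member was called by limma, beside 0.719% of all genes called higher and 0.449% lower, although the median estimate of the 42 was 1.11 against 0.08 for all genes and 13 had an unadjusted p under 0.05. On the centred scale 1 member rose, ASC1 at 1.55, beside 4.15% of all genes called higher and 2.75% lower. From 90 min to 1 doubling none was called either, beside 0.772% called higher and 0.162% lower, and 1 gene had an unadjusted p under 0.05. The median estimate was -0.28. On the centred scale 1 member was called lower, beside 2.91% of all genes called higher and 3.61% lower. Cells 2 doublings after release did not differ detectably from midlog cells in any member, beside 0.018% of genes called in each direction. There the median was -0.49 against 0.00 for all genes, and no member had an unadjusted p under 0.05.

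The large subunit protein genes moved in the same steps. Of 80 listed, 63 were tested, and 61 fell at starvation (median -5.41, led by RPL23B at -7.00 and RPL4A at -6.81), 38 rose at 5 min (median 2.03) and 50 rose from 5 to 30 min (median 2.36). On the centred scale 58 were called lower at starvation and 32 higher at 5 min, and from 5 to 30 min 19 were higher and 1 lower. A list of 18 assembly and export factors holds, beside those of the small subunit, ACL4, a chaperone of a large subunit protein. All 18 fell at starvation, beside 71.9% of all genes, with a median of -3.59. Among them were TSR2, the chaperone of the RPS26 protein (-5.07 ± 0.64, limma adjusted p = 4.11e-10), and the helicase gene PRP43 (-4.65 ± 0.49, 1.24e-12). At 5 min 9 of these factors rose, beside 10.3% of all genes, and from 5 to 30 min 17 rose, beside 39.1%. On the centred scale 13 of the 18 were called lower at starvation (median -1.57), beside 21.5% of all genes. There 11 rose at 5 min, beside 11.6%, and 11 from 5 to 30 min, beside 12.5%. Of 11 regulators of ribosomal protein gene transcription 8 fell and 1 rose at starvation, a share close to the 71.9% of all genes called lower. RAP1 fell by 2.80 (SE 0.64, limma adjusted p = 1.01e-04) and HMO1, a promoter-binding protein, by 2.73 (SE 0.47, 1.02e-06). CRF1, which encodes a corepressor that competes with Ifh1 for Fhl1, rose by 1.36 ± 0.55 (0.0238). On the centred scale no regulator was called lower, and CRF1 was higher by 3.38 ± 0.30 (limma adjusted p = 4.27e-15). IFH1 was the 1 regulator of 11 called at 5 min on the spike-in scale (1.95 ± 0.56, limma adjusted p = 0.0116), beside 10.3% of all genes called higher. On the centred scale 1 regulator was called higher at that step and 1 lower, beside 11.6% and 7.98% of all genes.

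The 2 genes of a pair were compared by their log2 ratio, A to B, within each library, which carries neither the spike-in nor the median gene. RPS26A exceeded RPS26B in every library, with a mean log2 ratio of 4.41. RPS14 had a mean of -3.77 with A lower in every library, subject to the zeros of RPS14A, and RPS9 -1.89 with A higher in 8. The smallest mean ratios were those of RPS29 (-0.24) and of RPS23 (-0.19), whose protein takes part in decoding. The coding sequences of the 13 pairs were 88.2% to 98.2% identical. Reads of the most alike pairs could be divided in more than 1 way by the counting.

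For some pairs the ratio differed between the sets of series defined by the zero value. The mean ratio of RPS26 was 5.30 in the 6 series with separate values (4.36 to 6.12) and 3.87 in the 10 with 1 value each (3.59 to 4.35). RPS14 gave -5.24 and -2.89, RPS28 1.22 and -0.05, and RPS22 1.75 and 0.62 in the same order. RPS9 (-1.94 and -1.86) was close in both sets. Which library kit was used for which series is not given in the sources used here, and its part in these differences was not tested. The levels of these pairs are therefore tied to the set a series belongs to.

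The ratio of RPS9 (YPL081W and YBR189W) passed the test over time in the wild types. In starved against midlog cells 2 of 13 member pairs were called, RPS9 among them, beside 20.6% of the 34 A and B pairs tested. Those 34 include the 13 member pairs, and all the others except NHP6 and COX5 are large subunit pairs. The shares of pairs given here and below thus describe ribosomal protein genes and not the genome. The member count at starvation did not exceed that share. The promoters of RPS9A and RPS9B are shown because the ratio of these paralogues changed. Each is the stretch of 300 bases that ends 100 bases upstream of the start codon, read 5′ to 3′ from the R64 genome on the forward strand, where both genes lie. Capitals mark matches to the Rap1 core CCNTACA on the strand shown or the other strand.

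RPS9A, chrXVI:404550-404849: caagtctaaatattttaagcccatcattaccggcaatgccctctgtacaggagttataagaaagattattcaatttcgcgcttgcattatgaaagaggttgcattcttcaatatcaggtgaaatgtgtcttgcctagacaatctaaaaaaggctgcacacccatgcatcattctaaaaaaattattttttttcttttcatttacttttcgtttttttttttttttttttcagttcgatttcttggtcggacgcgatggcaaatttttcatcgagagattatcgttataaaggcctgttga
RPS9B, chrII:604108-604407: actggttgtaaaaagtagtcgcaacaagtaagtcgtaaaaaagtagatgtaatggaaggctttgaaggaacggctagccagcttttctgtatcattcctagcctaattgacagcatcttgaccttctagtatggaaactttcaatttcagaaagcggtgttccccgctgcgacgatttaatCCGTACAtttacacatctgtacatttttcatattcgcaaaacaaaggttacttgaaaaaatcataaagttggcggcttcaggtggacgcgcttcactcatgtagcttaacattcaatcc

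RPS9B held 1 match in this window and RPS9A none. A match is a string of letters and not a shown binding site. The core was present in this window of 27 of the 57 genes (47.4%), of 41 of 80 large subunit genes (51.2%) and of 629 of 5692 genes in all (11.1%). It was chosen after the longer form CCCNTACA had been searched, which was found in 10 of the 57 (17.5%) and 2.9% of all genes. The Fhl1 motif GACGC occurred in 38.6% of the 57 and 20.2% of all, and the T tract TTTTTTTT in 26.3% and 33.7%. The Abf1 motif, AAAATTTT and GCGATGAG occurred in 5.26%, 8.77% and 0% of the 57 and in 9.84%, 9.33% and 3.62% of all genes. All 7 motifs were searched on both strands, and the longer Rap1 form lies within the shorter. The 17 measured genes with the shorter core had a median change of -6.25 at starvation and the 25 without it -5.07. The gap was not particular to this core: medians with and without were -5.95 and -5.07 for the Fhl1 motif. They were -6.16 and -5.33 for the T tract. The Abf1 motif (-4.97 and -5.77) and AAAATTTT (-4.62 and -5.77) went the other way. None of these differences was tested.

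RPS9A stood at 2.89, 3.23, 1.85 and 3.71 at midlog (wt1 and wt2, replicates 1 and 2 of each), at -1.17, -1.56, -2.36 and -1.21 in starved cells, and at 1.74, 2.59, 2.77 and 3.41 at 5 min. RPS9B stood at 5.18, 5.27, 7.20 and 6.64 at midlog, at -0.54, -1.06, 0.49 and -0.41 in starved cells, and at 1.16, 2.34, 2.62 and 3.66 at 5 min. RPS9A thus lay within its midlog range at 5 min in 3 of the 4 libraries, while every RPS9B library was still below its midlog range. The low end of the RPS9A range, 1.85, is replicate 1 of wt2. In each of the other series RPS9A at 5 min was still below its own midlog level.

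The log2 ratio of RPS9A to RPS9B was -2.29, -2.04, -5.35 and -2.93 at midlog, -0.64, -0.50, -2.85 and -0.80 in starved cells and 0.58, 0.25, 0.15 and -0.26 at 5 min. It rose in each of the 4 wild-type series at both steps, and by 1.95 ± 0.40 (SE, limma adjusted p = 5.15e-05) at starvation and by 1.38 ± 0.40 (0.0169) from there to 5 min, where 1 of 13 member pairs was called beside 5.88% of all pairs. At 30 min the ratio was -1.51, -0.27, -2.37 and -2.66, and at 90 min -2.68, -2.28, -4.35 and -3.36. It fell by 1.88 (SE 0.40, limma adjusted p = 2.46e-04) from 5 to 30 min, where 2 member pairs were called beside 11.8% of pairs, and by 1.46 (SE 0.40, 0.0173) from 30 to 90 min, where 1 was called beside 2.94%. Without replicate 1 of wt2 the estimates were 1.86, 0.76, -1.85 and -1.15, and the calls at 5 min and at 90 min were lost. The calls at 5 and 90 min were also lost without replicate 1 or 2 of wt1, and that at 30 min without replicate 1 of wt1 (-1.49). Within the set of series with separate zero values the RPS9 estimates were 2.07, 2.11, -2.31 and -1.57 and none was called; within the shared set they were 1.84, 0.65, -1.46 and -1.35, and the first and the step to 30 min were called.

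In the 12 series of the other strains, which share no library with the wild types, the RPS9 ratio rose at starvation in 12, by 1.51 to 2.78 on the log2 scale. It fell from 5 to 30 min in 12 and from 30 to 90 min in 11. From starvation to 5 min it rose in 9 of the 12 and fell in 3. The shift at starvation was thus of one direction in all 16 series.

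No member pair was called from 90 min to 1 doubling, beside 0% of pairs, or from midlog to 2 doublings, beside 2.94%.

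**Figure D3:**
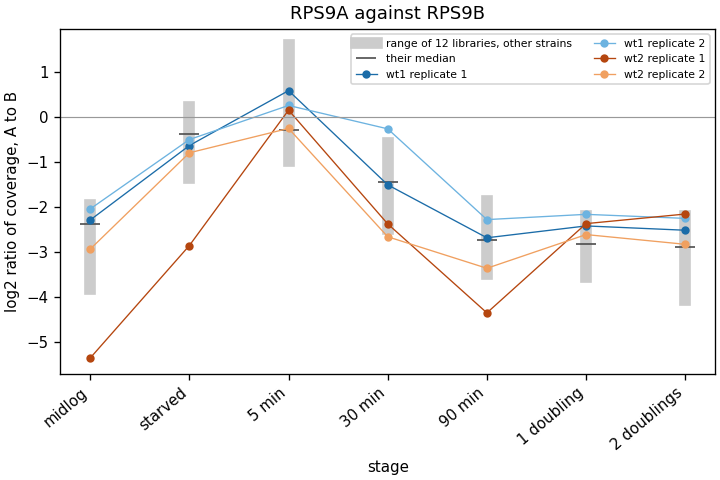
The log2 ratio of coverage of the A gene to the B gene (vertical axis) is plotted by stage for RPS9; coloured lines are the 4 wild-type series and grey bars the range of the 12 series of the other strains, with their median. The ratio rises from -3.15 at midlog to 0.18 at 5 min (wild-type means) and returns to -3.17 at 90 min.

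Each of the 6 other strains was compared with the mean of wt1 and wt2 on the centred scale, with a series as the unit; all 6 comparisons share the wild-type libraries. No member was called by limma in Sir2D, Sir3D, Sir4D, Sir3_3xT7 or Sir3_3xHA, either in growing cells, in starved cells or in the response from starvation to 30 min. In growing cells the share of all genes called higher and lower was 0.341% and 0.629% in Sir2D, 0.18% and 0.557% in Sir3D, 0.287% and 0.611% in Sir4D, 0.0539% and 0.0539% in Sir3_3xT7, and 0.0539% and 0.018% in Sir3_3xHA. No member of these 5 strains had an unadjusted p under 0.05 in growing cells, and the members' median differences lay between -0.33 in Sir4D and 0.10 in Sir3D. In starved cells the shares were 0.0719% and 0.144% in Sir2D, 0.0719% and 0.162% in Sir3D, 0.108% and 0.251% in Sir4D, 0.0719% and 0.18% in Sir3_3xT7, and 0.0719% and 0.0898% in Sir3_3xHA. There 1 member each had an unadjusted p under 0.05 in Sir2D, Sir4D and Sir3_3xHA and none in the other two, with medians from -0.42 in Sir4D to 0.25 in Sir2D. In the response to release the only genes called in any of the 5 strains were the 0.0359% lower in Sir4D. Unadjusted p under 0.05 was reached by 3 members in Sir3_3xT7 and by 1 in each of the other 4.

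From midlog to starvation the median of the 42 changed by -5.56 to -3.33 in the 10 series of these strains, against -2.67 to -0.57 for all genes. No member was higher in starved cells in 8 of the 10, while 2 were in replicate 1 of Sir2D and 3 in replicate 1 of Sir3_3xHA. By 30 min after release all 42 genes exceeded their starved level in every one of the 10 series. At 5 min 26 and 22 of the 42 genes were above their starved level on the spike-in scale in the Sir3_3xT7 series, against 41 or 42 in the other 8. The median of all genes moved by -1.56 in replicate 2 of Sir3_3xT7 over that step, and the share of the 42 genes there went from 2.13% to 6.32%. In replicate 1 the share went from 2.77% to 3.29%, and the median gene had 4 reads at 5 min.

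The oeSir3 strain differed. Its 42 genes held 0.231% and 0.348% of the coverage in the starved libraries, below the 1.41% of the lowest wild-type library, and 1.21% and 1.27% at 5 min against 3.60% to 6.25%. At 30 min they held 6.51% and 8.45%, and 6.64% and 14.6% at 90 min, where the higher replicate had entered the wild-type range of 14.0% to 23.1%.

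**Figure D4:**
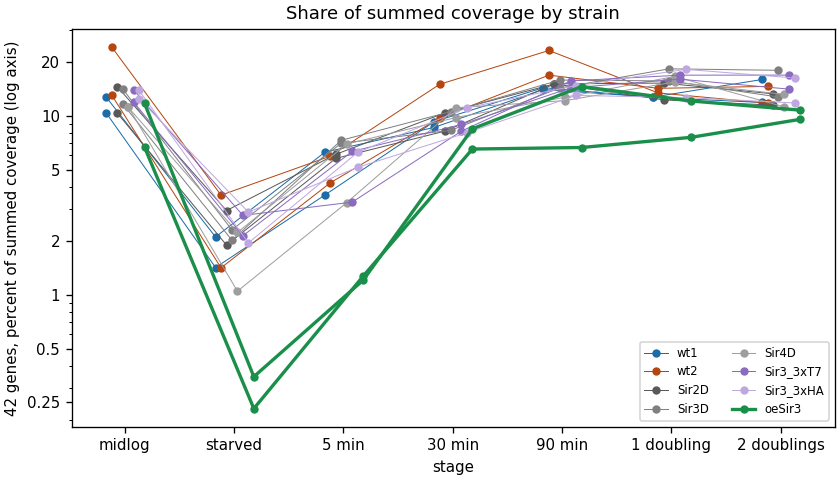
The share of summed coverage held by the 42 genes (percent, log axis) is plotted by stage for all 16 series, with points of a stage set slightly apart by strain. Both oeSir3 series lie below all the others at starvation and at 5 min, at 0.231% to 0.348% and at 1.21% to 1.27%.

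In starved oeSir3 cells 29 of the 42 genes were lower than in the wild types and none higher by limma, beside 12.6% of all genes called lower and 25.6% higher. The median difference was -2.52 against 0.27 for all genes. RPS26A stood at -0.29 and 0.89 against the library's median gene, while the wild types had 5.57, 3.48, 7.65 and 3.37. RPS10A stood at -0.89 and 0.25 against 3.71, 3.61, 5.99 and 2.76, and RPS23A at -1.26 and 0.65 against 3.39, 3.36, 6.16 and 3.49. Both oeSir3 libraries lay below all 4 wild-type libraries for these 3 genes, and for 32 of the 42, beside 19.1% of all genes. The differences were -4.72 ± 1.08 for RPS26A (SE, limma adjusted p = 0.00428), -4.41 ± 0.68 for RPS23A (4.21e-04) and -4.34 ± 0.72 for RPS10A (6.41e-04).

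Depth was low behind these values: the median member had 10 and 14 reads in the starved oeSir3 libraries against 219.5 to 357 in the wild types, 21 and 13 members had under 10 reads, and 5 and 1 were at 0. Without replicate 1 of oeSir3 the count was 16, with its lone library taken to vary like the other groups.

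Several genes did not have both oeSir3 libraries below all 4 wild types in starved cells. Among them RPS10B, ASC1, RPS21A, RPS22B and RPS14B had replicate 1 below all 4 wild types and replicate 2 within their range. The genes given with values here were picked after those values were seen. RPS10B, whose protein sits in the head, stood at 2.37 and 4.74 against 3.31, 3.76, 5.54 and 2.85, and RPS27A at 3.80 and 4.63 against 3.33, 3.55, 4.25 and 3.37. RPS28A stood at 2.15 and 2.30 within the wild-type range of 1.27 to 6.69. RPS25B, at 2.40 and 2.48, was the member with both libraries above all 4 wild types (1.96 to 2.30), although the gap is small and it was not called. The partners of RPS28A and RPS25B were low: RPS28B stood at -1.16 and -0.83 against 1.77 to 4.16, and RPS25A at -0.81 and -0.03 against 1.46 to 2.84.

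The ratios of the following pairs lay outside the range of all other starved libraries. RPS10A to RPS10B was -3.25 and -4.49 in oeSir3, -0.15 to 0.45 in the wild types and -0.25 to 0.49 in the other 10 series. RPS25 gave -3.21 and -2.51 against -0.60 to 0.59 and -0.76 to 0.90, and RPS28 3.31 and 3.13 against -0.51 to 2.53 and -0.39 to 1.60. RPS23 gave -1.41 and -0.99 against 0.03 to 0.75 and -0.31 to 0.70. RPS22 gave -1.93 and -1.59 against -0.71 to 2.36 and -1.44 to 1.33, and RPS26 1.47 and 1.96 against 2.57 to 7.71 and 2.86 to 5.71. RPS26B, however, was at 0 coverage in replicate 1 of oeSir3 and close to it in replicate 2 (-1.76 and -1.07 against the median gene). The 0.03 added to each value lowers such a ratio, so the place of RPS26 outside the range is uncertain. RPS22A was likewise at 0 coverage in replicate 1 and low in replicate 2 (-1.76 and -0.94). RPS23A and RPS28B were also low in replicate 1 (-1.26 and -1.16). The RPS22, RPS23 and RPS28 ratios thus rest on few reads as well. RPS1, at 1.37 and 0.67, stayed inside the wild-type range of -0.02 to 1.73. The pairs were picked from these values and no test was made. The share of all A and B pairs outside that range was not computed, so the shift is not shown to be particular to these pairs. The low depth of the starved oeSir3 libraries applies to these ratios too.

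**Figure D5:**
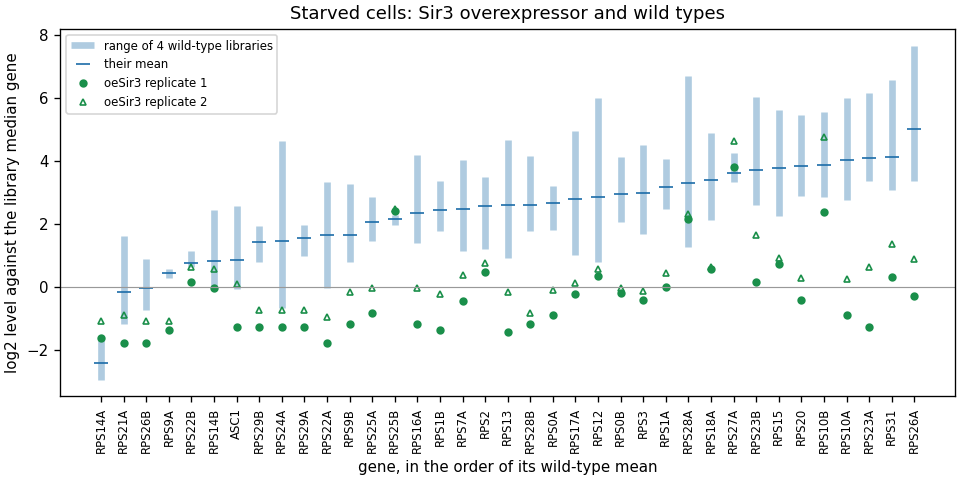
For 37 of the 42 genes (horizontal axis, in the order of the wild-type mean) the log2 level against the library's median gene (vertical axis) is shown in starved cells; bars are the range and dashes the mean of 4 wild-type libraries, and green symbols the 2 oeSir3 libraries. Both symbols lie under the bar for 28 of these genes, and both above it for RPS25B.

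From starvation to 30 min 24 of the 42 genes gained more in oeSir3 than in the wild types and none was called lower by limma, beside 12.9% of all genes called higher and 25.8% lower, with medians of 1.72 and -0.34. The members ranged from -1.50 to 3.24. RPS28B (3.24 ± 0.58, SE, adjusted p = 6.97e-04), RPS26A (3.23 ± 0.47, 1.96e-04) and RPS23A (2.95 ± 0.62, 0.00206) led. This contrast shares the starved libraries with the one before it, so it is not separate evidence of the low starved levels. At 30 min 12 of the 42 genes still had both oeSir3 libraries below all 4 wild types, beside 12.6% of all genes. The count was 14 without replicate 1 of oeSir3 (12 higher and 2 lower) and 13 with only the series whose libraries share a zero value.

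In growing oeSir3 cells 3 genes were lower and none higher by limma, beside 5.95% of all genes called lower and 7.9% higher, with medians of -0.96 for the members and -0.13 for all genes. RPS25B stood at 1.56 and 1.72 against 3.59, 2.58, 5.14 and 3.40 (-2.04 ± 0.45, adjusted p = 0.00726), RPS29B at 1.19 and 1.49 against 2.54, 2.26, 3.96 and 2.49 (-1.47 ± 0.41, 0.0250), and RPS7A at 4.94 and 5.86 against 6.67, 6.03, 7.38 and 6.86 (-1.34 ± 0.39, 0.0294). The 2 oeSir3 series lay below all 4 wild types for each of them, and for 15 of the 42 genes, beside 28% of all genes. The 3 calls among the 42 are also a share close to the 5.95% of all genes. The count was 1 without replicate 1 of wt1 or of wt2, 6 without replicate 2 of wt1, 16 without replicate 2 of wt2, 0 without replicate 1 of oeSir3 and 5 without its replicate 2, and on the spike-in scale it was 0. No member pair ratio was called in any strain in growing cells, beside 2.94% of pairs in oeSir3 and 0% in the other 5 strains.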

How the data were processed

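The authors deposited log2 values per gene and library: per the labels and the file headers, median coverage of the coding sequence scaled by the spike-in. CASAVA 1.7.0 and ASM294v2, a fission yeast build, appear in the submitters' processing notes. Aligner, budding yeast build and strand use in counting: not given in the sources. Reads of near-identical paralogues and of antisense partners are therefore uncertain. Values were taken out of log2, the commonest value of each library, which stands for 0 coverage, was set to 0, and log2(value + 0.03) was used. Log2 changes understate those of low genes. Genes above 0.15 in at least 4 libraries (5567) were tested with limma 3.58.1 in R 4.3.3 (Benjamini-Hochberg, two-sided), on simulated data first; the time fit used all 112 libraries as independent. Python 3.11.15 made tables and figures. Growing cells are the mean of midlog and both doublings, and reads were recovered from coverage steps. Without a protein table pairs were taken from symbols ending in A or B.

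The text names genes without a paralogue, the 3 largest and 3 smallest called changes of each contrast, called pairs, the 4 largest and 2 smallest pair ratios, and up to 6 strain calls, except that results of some members and pairs are not reported here. The members and lists were chosen with earlier results of these data known. The assembly list holds ACL4, a chaperone of a large subunit protein. Alternatives covered scale, pseudocount, filter, zero value, depth, length trend, replicate block, sets of series and left-out series. No per-sample column was left unmapped.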

Additional observations from a re-analysis of the deposited data

Results flagged for a closer look

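Single wild-type libraries were screened in 117 groups of 4 (levels, pair ratios and shares of named members), and 7 had a library far from the other 3; chance flags about 1 in 20 groups. On the spike-in scale RPS20 at 30 min was 5.82 in replicate 1 of wt1 (others 7.22 to 7.44), and ASC1 in the same library was 1.83 (others 4.36 to 4.65). RPS2 at 5 min was 3.71 in replicate 2 of wt2 (others 2.58 to 2.69). The other 4 were all in replicate 1 of wt2: RPS2 at 90 min (7.59, others 6.39 to 6.59), the RPS9 ratio in starved cells (-2.85, others -0.80 to -0.50), and, against the median gene, RPS23A in starved cells (6.16, others 3.36 to 3.49) and RPS29B in growing cells (3.96, others 2.26 to 2.54). The change from starvation to 30 min differed between oeSir3 and the wild types, by limma, in 24 of the 42 genes.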

How the results depend on the processing

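Of 504 alternative values for 36 counts of called genes or pairs, 454 stayed within 1.5 times the count given above and 50 moved; of the values of single genes and pairs 1956 stayed on the same side of the threshold, 272 lost their call and 0 changed direction. The cause was not tested. Centring gave 20 genes from 5 to 30 min, 1 from 30 to 90 min and 1 from 90 min to 1 doubling. With the series as a replicate block the counts were 37 at 5 min, 2 from 30 to 90 min and 1 from 90 min to 1 doubling, and for pairs 2 at 5 min and 1 from 90 min to 1 doubling. Libraries of a series deviated together unevenly (correlations between their libraries from 0.51 to 0.75, median 0.61, in wt1 and from 0.03 to 0.85, median 0.65, in wt2), and the labels name no shared culture, so the block is given as an alternative only. The series with separate zero values alone gave 1 gene at 5 min, 6 from 5 to 30 min and 0 pairs at 5, 30 and 90 min. Those with 1 value per series gave 42 at 5 min, 6 from 30 to 90 min, 1 from 90 min to 1 doubling, 1 in growing Sir4D, 13 in the oeSir3 response, 5 pairs at starvation, 0 from 30 to 90 min, 1 from 90 min to 1 doubling and 1 in growing oeSir3. A pseudocount of 0.1 gave 1 pair from 5 to 30 min. For growing oeSir3 the spike-in scale gave 0 genes and removal of the length trend 6. Without the filter, and with the 15 unmeasured genes counted (an alternative chosen after seeing the data), starved oeSir3 gave 44 calls (15 higher) and the response 37 (15 lower); the 15 are zeros moved by centring. Leaving out 1 series at a time gave 41 to 42 genes at starvation, 3 to 22 at 5 min and 23 to 32 from 5 to 30 min, 0 to 2 in starved Sir4D, and for oeSir3 0 to 16 growing, 16 to 34 starved and 14 to 27 in the response. For pairs it gave 1 to 3, 0 to 1, 0 to 2, 0 to 1 and, for 2 doublings against midlog, 0 to 2; the remaining counts stayed at 0. Genes with few reads, above all in starved oeSir3, limit precision.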
